A study of Mus musculus with 6 samples.

Results

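The 9 genes Fdft1, Sqle, Lss, Cyp51, Tm7sf2, Nsdhl, Hsd17b7, Ebp and Dhcr7 encode enzymes that carry farnesyl diphosphate through squalene and lanosterol to cholesterol. They were taken by gene symbol from the deposited liver read counts, as 9 of 23284 genes in the files, and all 9 were among the 12453 genes with enough reads to be tested. RNA-seq was carried out on livers of male mice with floxed alleles of the gene for FXR, the nuclear receptor that senses bile acids. At 8 weeks of age every mouse received, through the tail vein, AAV serotype 8 (AAV8) with Cre recombinase under the TBG promoter, which is active in hepatocytes. It was given together with AAV8 that expressed FXR from the same promoter. The 3 control livers received wild-type FXR (FXR-WT), and the other 3 received Y67F-FXR, in which the tyrosine at position 67, a phosphorylation site, is replaced by phenylalanine. After 4 weeks all mice were fed chow with 0.5% cholic acid for 6 h. Cells in which the TBG promoter is silent keep their own FXR in this model, and all 6 livers, controls included, carried both viruses and the cholic acid feeding. The comparison asks how the genes differ between livers with FXR that can and cannot be phosphorylated at this tyrosine.

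Cholesterol synthesis begins with acetyl-CoA, runs through mevalonate to farnesyl diphosphate, and commits to sterols when squalene synthase joins farnesyl units. Squalene is then oxidised, closed into lanosterol and stripped of methyl groups before its double bonds are moved and reduced. When sterols in the endoplasmic reticulum are low, SREBP-2 is cleaved and its released part enters the nucleus, where it binds promoters of these genes together with factors such as NF-Y, which recognises CCAAT, and Sp1, which recognises GC-rich boxes. In the liver the cholesterol that is made also feeds the synthesis of bile acids.

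The promoters of the genes were read from RefSeq (mouse build GRCm38.p6), as windows of 300 bases that run from 250 before to 50 after the annotated start, and windows were found for 7 of the 9 genes (Fdft1 and Sqle were the others). The letters CCAAT, on either strand, were in 7 of 7 genes, against 41.1% of all 27025 genes with such windows. For Dhcr7, only 1 of its 3 windows held them. The letters GGGCGG, on either strand, were also in 7 of 7 genes, against 38.2% of all. The letters TCACNCCAC, a form of the sterol regulatory element, were in 0 of 7 and in 1.4% of all, which says only that these exact letters were not in these windows. Below are 4 of the windows, 5′ to 3′ along the gene's strand, with CCAAT or its reverse complement ATTGG in capitals. They are shown because Lss and Cyp51 were among the genes with separate groups, whereas Tm7sf2 and Ebp were among those with overlapping groups. The windows are chr10:76531355-76531654 (+) for Lss, chr5:4104648-4104947 (-) for Cyp51, chr19:6067801-6068100 (-) for Tm7sf2 and chrX:8193463-8193762 (-) for Ebp.
Lss: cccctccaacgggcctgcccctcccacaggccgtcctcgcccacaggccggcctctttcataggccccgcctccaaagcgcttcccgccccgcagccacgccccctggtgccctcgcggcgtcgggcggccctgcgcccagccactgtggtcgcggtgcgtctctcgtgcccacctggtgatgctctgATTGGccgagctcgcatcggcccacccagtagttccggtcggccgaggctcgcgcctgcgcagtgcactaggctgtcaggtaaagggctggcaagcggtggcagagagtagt
Cyp51: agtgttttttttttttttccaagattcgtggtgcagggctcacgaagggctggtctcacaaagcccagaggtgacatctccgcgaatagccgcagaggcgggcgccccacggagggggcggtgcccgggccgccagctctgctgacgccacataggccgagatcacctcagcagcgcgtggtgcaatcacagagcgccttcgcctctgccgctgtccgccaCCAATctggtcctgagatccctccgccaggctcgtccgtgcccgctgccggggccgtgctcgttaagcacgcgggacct
Tm7sf2: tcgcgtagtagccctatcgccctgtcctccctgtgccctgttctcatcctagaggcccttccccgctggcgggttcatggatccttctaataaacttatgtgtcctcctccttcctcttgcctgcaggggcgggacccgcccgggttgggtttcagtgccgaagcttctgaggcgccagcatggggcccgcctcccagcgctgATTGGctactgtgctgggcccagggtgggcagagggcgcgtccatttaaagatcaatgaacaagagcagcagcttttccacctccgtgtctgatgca
Ebp: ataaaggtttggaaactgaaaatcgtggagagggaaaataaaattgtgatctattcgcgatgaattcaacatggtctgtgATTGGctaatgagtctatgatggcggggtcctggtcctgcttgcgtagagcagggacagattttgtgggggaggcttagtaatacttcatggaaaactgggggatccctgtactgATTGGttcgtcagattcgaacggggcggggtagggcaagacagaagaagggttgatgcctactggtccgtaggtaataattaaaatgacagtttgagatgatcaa
The capitals begin 62 bases before the start in Lss, 29 before it in Cyp51, 47 before it in Tm7sf2, and 170 and 55 before it in Ebp. Genes of both kinds thus carried the same letters, and these matches are a description of the windows, not of binding.

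The 6 libraries held 19551113 to 22053320 assigned reads, and the 10 most abundant genes took 18.4 to 20.4% of them. The 3 livers of each group are numbered separately in the labels, with 1 library each, so p-values measure the spread between these livers. The third Y67F-FXR liver was above the other two for the 6 enzymes with lower means, and the fitted differences of the 9 are given with and without it. In whole liver, fewer cells of a type and less RNA per cell cannot be told apart. All 6 libraries carried the hepatocyte markers at a summed level of 93458 to 116590 CPM (reads of a gene scaled to a common library size).

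Of the 9 squalene to cholesterol enzymes, 6 had lower means in Y67F-FXR livers and 3, Tm7sf2, Hsd17b7 and Ebp, had slightly higher ones. The summed level, to which abundant genes add most, was 1299, 1418 and 1364 CPM in the 3 FXR-WT livers, and 750.1, 821 and 1112 CPM in the 3 Y67F-FXR livers, in order of replicate number. The third Y67F-FXR liver was therefore nearest to the controls, although all 3 were below them. Here CPM is scaled by the TMM method, and a gene was called if edgeR's quasi-likelihood test gave it a Benjamini-Hochberg adjusted p under 0.05 with a fold over 1.5. No member was called, 0 of 9, against 0.426% of all 12453 tested genes called lower, 0.546% called higher and 0.972% called in either direction. At an unadjusted p under 0.05, 6 of 9 were lower, against 6.67% of all tested genes, and 0 of 9 were higher, against 6.75%. With other tests, the likelihood ratio test of edgeR and the Wald test of DESeq2, 5 of 9 were called lower, namely Cyp51, Dhcr7, Fdft1, Lss and Sqle. Over all tested genes the likelihood ratio test called 1.81% lower and 1.77% higher, and DESeq2 called 1.73% lower and 1.73% higher. In those same 5 genes every Y67F-FXR liver was below every FXR-WT liver, which held for 10.5% of all tested genes, and 0 of 9 had all Y67F-FXR livers above, against 10.2% of all. The fitted difference was below 0 in 6 of 9 genes, against 48% of all. The median log2 fold change of the 9 was -0.98, and that of all tested genes was 0.01.

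**Figure D1:**
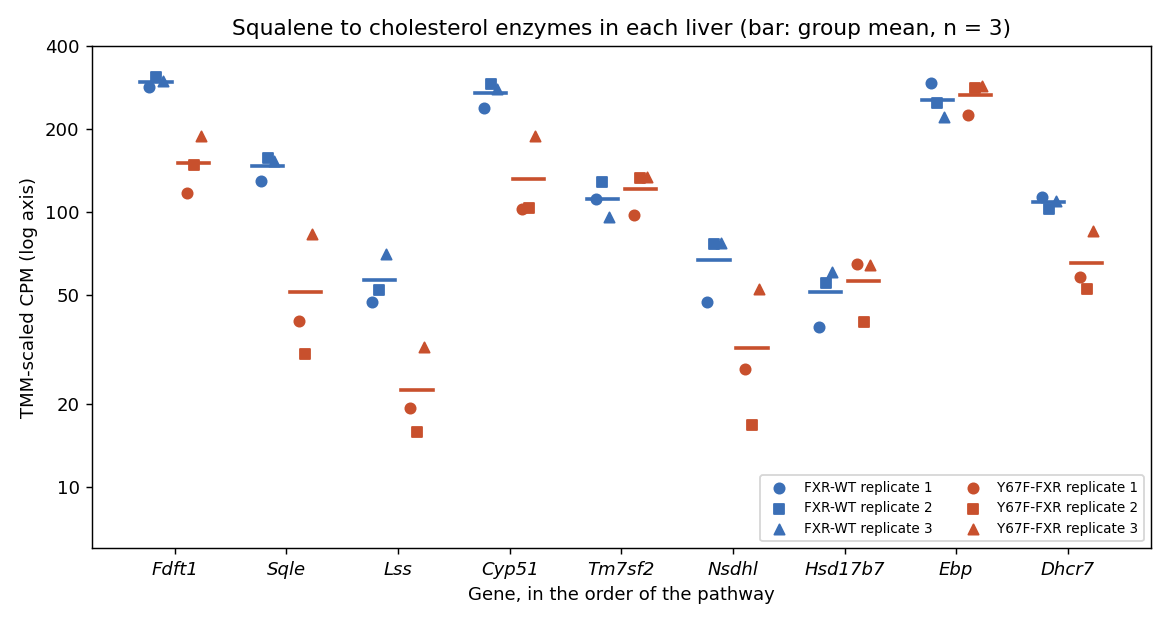
TMM-scaled CPM (log axis) of the 9 enzymes in the order of the pathway, with 1 point per liver, a symbol for each replicate number and a bar at the mean of each group (n = 3). The Y67F-FXR points lie wholly below the FXR-WT points for Fdft1, Sqle, Lss, Cyp51 and Dhcr7, and the triangle of the third Y67F-FXR liver is the highest of its group for those genes.

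Squalene synthase, encoded by Fdft1 (mm9, chr14:63763988-63796630, minus strand), makes squalene and is the branch point at which carbon enters sterols. Fdft1 was at 283, 308 and 299 CPM in the FXR-WT livers and at 117, 147 and 188 CPM in the Y67F-FXR livers. The groups did not overlap, and the Y67F-FXR livers were spread more widely than the controls. The means were 297 ± 13.0 and 151 ± 35.7 CPM (SD, n = 3 each), or 1.97-fold lower with Y67F-FXR. The fitted log2 fold change was -0.98 (SE 0.177, edgeR adjusted p = 0.0547), just short of the threshold. Of the exon bases of Fdft1, 27.0% overlap those of the cathepsin B gene Ctsb, and reads that touched both genes were not counted. For Ctsb itself the log2 fold change was 0.05 (adjusted p = 0.937).

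Squalene epoxidase, encoded by Sqle (chr15:59146647-59162748, plus strand), adds the oxygen that allows the ring closure, and is one of the rate-limiting enzymes of the pathway. Sqle was at 129.5, 156.5 and 153 CPM in the FXR-WT livers and at 40.2, 30.4 and 82.7 CPM in the Y67F-FXR livers. All 3 Y67F-FXR livers were below the controls, and the third was higher than the other two. The mean went from 146 ± 14.6 to 51.1 ± 27.8 CPM (SD, n = 3 each), 2.86-fold lower and the largest difference among the 9. Its log2 fold change of -1.52 (SE 0.338) had an adjusted p of 0.0969 in edgeR.

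Lanosterol synthase, encoded by Lss (chr10:75994372-76016679, plus strand), folds oxidosqualene into lanosterol, the first sterol. The FXR-WT livers held 47.2, 52.0 and 70.1 CPM of Lss, and the Y67F-FXR livers 19.4, 15.9 and 32.2 CPM. The groups did not overlap. Means were 56.4 ± 12.1 and 22.5 ± 8.60 CPM (SD, n = 3 each), 2.51-fold lower, with a log2 fold change of -1.33 (SE 0.275, edgeR adjusted p = 0.0829). A small share of its exon bases, 6.06%, overlaps 4930483K19Rik, which was itself at only 1.62 ± 0.178 CPM in FXR-WT and 0.787 ± 0.107 CPM in Y67F-FXR livers (SD, n = 3 each), with a log2 fold change of -1.04 (adjusted p = 0.136).

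Lanosterol 14-alpha-demethylase, a cytochrome P450 encoded by Cyp51 (chr5:4080674-4104697, minus strand), removes the first methyl group. Cyp51 stood at 237, 292 and 279 CPM in FXR-WT livers and at 102, 103 and 188 CPM in Y67F-FXR livers. The first and second Y67F-FXR livers were nearly equal, and the third lay between them and the controls. The means of 269 ± 28.3 and 131 ± 49.2 CPM (SD, n = 3 each) differed 2.05-fold, with a log2 fold change of -1.04 (SE 0.245, edgeR adjusted p = 0.111).

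The next enzyme, sterol 14-reductase encoded by Tm7sf2 (chr19:6062821-6067850, minus strand), had similar means in both groups. Its FXR-WT livers were at 111, 129 and 95.3 CPM and its Y67F-FXR livers at 97.3, 132 and 134 CPM. The groups overlapped, with means of 112 ± 16.6 and 121 ± 20.6 CPM (SD, n = 3 each). The log2 fold change was 0.12 with a 95% interval of -0.28 to 0.51 (edgeR adjusted p = 0.849), so that a decrease of the size seen for Cyp51 lies outside the interval. Its exon overlap with 1110014N23Rik covers 0.609% of its bases. Lbr, which encodes another protein with the same reductase activity, was at 6.16, 5.82 and 5.92 CPM in FXR-WT livers and 4.67, 5.35 and 3.91 CPM in Y67F-FXR livers. Its groups did not overlap, and its fitted difference was -0.36 log2 (SE 0.177, edgeR adjusted p = 0.432).

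Removal of the 2 methyl groups at carbon 4 needs Nsdhl, a sterol dehydrogenase and decarboxylase (chrX:70163860-70203867, plus strand), and Hsd17b7, the 3-ketosteroid reductase (chr1:171879668-171899336, minus strand). Nsdhl was at 46.9, 76.2 and 77.3 CPM in FXR-WT livers and at 26.9, 16.9 and 52.6 CPM in Y67F-FXR livers. The third Y67F-FXR liver exceeded the first FXR-WT liver, so the groups overlapped. The means were 66.8 ± 17.2 and 32.1 ± 18.4 CPM (SD, n = 3 each), 2.08-fold lower, and the log2 fold change was -1.06 (SE 0.390, edgeR adjusted p = 0.287).

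Hsd17b7 was at 38.1, 55.0 and 60.2 CPM in FXR-WT livers and 64.6, 39.8 and 64.1 CPM in Y67F-FXR livers. The groups overlapped, with means of 51.1 ± 11.6 and 56.2 ± 14.2 CPM (SD, n = 3 each). The log2 fold change of 0.14 came with a 95% interval of -0.41 to 0.68 (edgeR adjusted p = 0.879) and went to -0.04 when the first FXR-WT liver was left out.

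The sterol delta8-delta7 isomerase, encoded by Ebp (chrX:7762457-7770638, minus strand), moves a ring double bond. Ebp was at 293, 247 and 220.1 CPM in FXR-WT livers and at 225, 282 and 286 CPM in Y67F-FXR livers. The groups overlapped, and the means of 254 ± 36.9 and 264 ± 34.2 CPM (SD, n = 3 each) were closer than the spread of either. The log2 fold change was 0.06 with a 95% interval of -0.30 to 0.42 (edgeR adjusted p = 0.923), and its sign turned when library totals replaced TMM (-0.01) and without the third FXR-WT liver (-0.03).

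The last reduction to cholesterol is made by 7-dehydrocholesterol reductase, encoded by Dhcr7 (chr7:151009072-151034315, plus strand), whose loss causes Smith-Lemli-Opitz syndrome in people. Dhcr7 was at 113, 103 and 109.7 CPM in FXR-WT livers and at 57.8, 52.6 and 84.9 CPM in Y67F-FXR livers. Groups did not overlap, and the controls were tightly placed. The means were 109 ± 5.29 and 65.1 ± 17.4 CPM (SD, n = 3 each), 1.67-fold lower, with a log2 fold change of -0.74 (SE 0.186, edgeR adjusted p = 0.133), the smallest difference among the 6 lower genes.

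The third Y67F-FXR liver was above the mean of the other two Y67F-FXR livers for all 9 genes. The gap was widest for Nsdhl and Sqle, at 1.30 and 1.24 on the log2 scale, followed by Lss and Cyp51 at 0.87 each, Dhcr7 at 0.62 and Fdft1 at 0.52. It was smallest for Hsd17b7 at 0.34, Tm7sf2 at 0.24 and Ebp at 0.18, the 3 genes whose groups overlapped without a lower mean. Averaged over the 9 genes and centred on the mean of the 6 livers, the level was 0.24, 0.45 and 0.44 log2 in FXR-WT livers and -0.54, -0.66 and 0.08 log2 in Y67F-FXR livers. Without the third Y67F-FXR liver, the median log2 fold change of the 9 went from -0.98 to -1.16, and Cyp51 and Sqle were called lower (edgeR adjusted p = 0.0445 and 0.0291), 2 of 9 against 0.135% of all genes tested in that fit. The log2 fold changes were then -2.04 for Sqle, -1.67 for Lss, -1.61 for Nsdhl, -1.38 for Cyp51, -1.16 for Fdft1 and -0.97 for Dhcr7. They stayed near 0 for Tm7sf2 (0.05), Hsd17b7 (0.03) and Ebp (0.01). Lss, Fdft1, Dhcr7 and Nsdhl had adjusted p-values of 0.0666, 0.081, 0.081 and 0.141 in that fit. The third Y67F-FXR liver was singled out by these same values, so larger differences of the lower genes without it follow from that choice. Its omission therefore adds no independent support. Without the first or the second Y67F-FXR liver the median was -0.82 and -0.76, with 0 of 9 called in each.

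**Figure D2:**
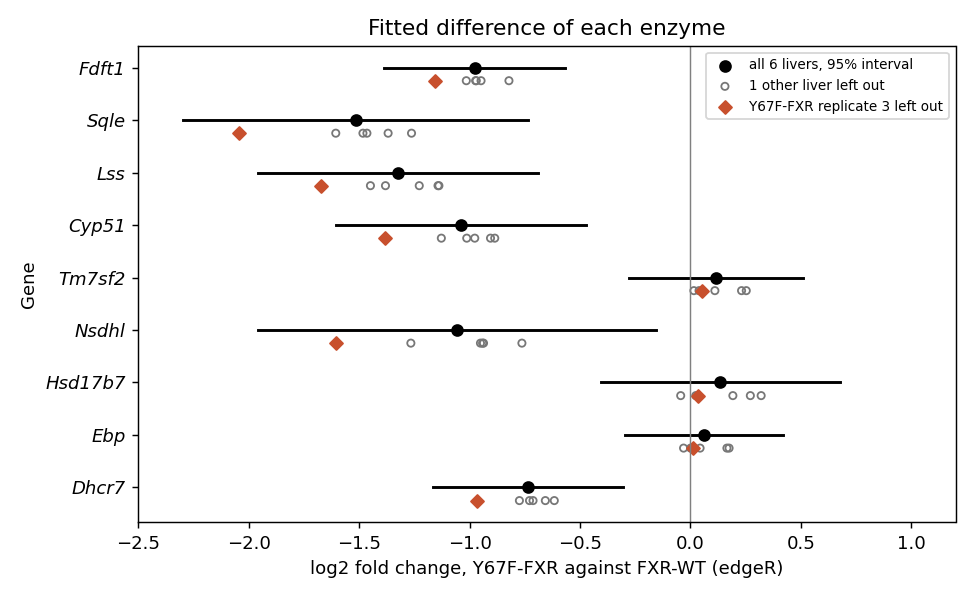
Log2 fold change of Y67F-FXR against FXR-WT for each enzyme, fitted by edgeR with all 6 livers (black point and unadjusted 95% interval) and with 1 liver left out (open circles, and a diamond where the third Y67F-FXR liver was left out). The fits of Sqle run from -2.04 without the third Y67F-FXR liver to -1.26, whereas those of Tm7sf2, Hsd17b7 and Ebp stay near 0.

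Per kilobase of exon, a scale on which genes can be set side by side, the order of levels in the 3 FXR-WT livers was the same throughout, with Ebp first, then Fdft1, Tm7sf2, Cyp51, Sqle, Dhcr7, Nsdhl and Lss, and Hsd17b7 last. Ebp was at 146 ± 21.2 CPM per kb and Hsd17b7 at 11.2 ± 2.53 CPM per kb in these livers (SD, n = 3 each). The ranges of 3 neighbouring pairs in this order overlapped between livers, namely Tm7sf2 with Cyp51, Cyp51 with Sqle, and Nsdhl with Lss. The place of Ebp before Fdft1 depends on the bases that Fdft1 shares with Ctsb, where reads were not counted. Per kilobase of exon that no other gene shares, Fdft1 was at 135, 148 and 143 CPM in FXR-WT livers and Ebp at 168, 142 and 126 CPM, so Fdft1 was first in FXR-WT replicates 2 and 3. The other places were the same in all 6 livers on that scale. In Y67F-FXR livers Ebp was again first, at 152 ± 19.6 CPM per kb. Fdft1, at 103.7 ± 4.53 CPM per kb in FXR-WT livers and 52.7 ± 12.5 in Y67F-FXR livers, was 1 place lower in every Y67F-FXR liver, behind Tm7sf2. Tm7sf2, at 75.4 ± 11.3 and 81.8 ± 13.9 CPM per kb, stood next after Ebp there. Lss went from 18.2 ± 3.90 to 7.25 ± 2.77 CPM per kb and took the last place, below Hsd17b7 at 12.3 ± 3.10, in each Y67F-FXR liver. From Fdft1 downward, the ranges of all neighbouring pairs in the Y67F-FXR order overlapped.

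**Figure D3:**
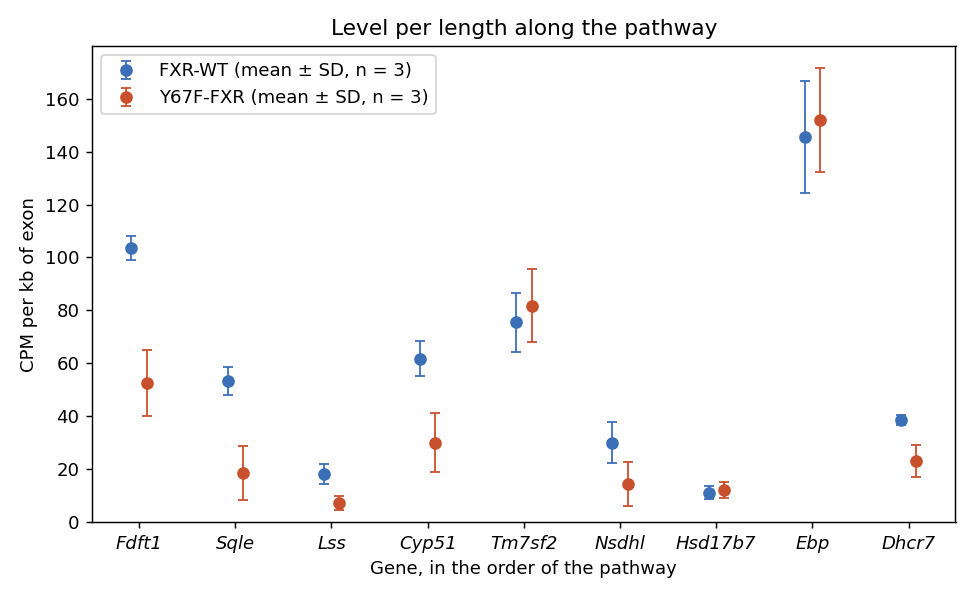
Level of each enzyme per kilobase of exon in CPM per kb, as mean with SD (n = 3 livers per group), along the pathway. Over all exon bases Ebp is the highest in both groups at 146 and 152 CPM per kb, and Fdft1 lies at 103.7 in FXR-WT and 52.7 in Y67F-FXR livers.

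Ratios of neighbouring enzymes within a liver were taken for 8 pairs. Those of Lss to Sqle, Cyp51 to Lss, and Ebp to Hsd17b7 overlapped between groups. The share over other gene pairs was not computed, so the number of pairs without overlap has no background. The ratios of Tm7sf2 to Cyp51, Nsdhl to Tm7sf2, Hsd17b7 to Nsdhl and Dhcr7 to Ebp restate differences of single genes. Each sets a gene with a lower mean against Tm7sf2, Hsd17b7 or Ebp. The log2 ratio of Tm7sf2 to Cyp51, both in CPM, averaged -1.27 in FXR-WT livers and -0.07 in Y67F-FXR livers, without overlap. The log2 ratio of Hsd17b7 to Nsdhl was -0.30, -0.47 and -0.36 in FXR-WT livers and 1.26, 1.23 and 0.29 in Y67F-FXR livers, again without overlap. Across the last part of the pathway, the log2 ratio of Dhcr7 to Ebp averaged -1.21 and -2.04. The other ratios without overlap were Sqle to Fdft1, at -1.02 and -1.66, and Nsdhl to Tm7sf2, at -0.77 and -2.05. With 3 livers against 3, an exact two-sided permutation test of a single ratio cannot give a p below 0.10, so these ratios were not tested.

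Over the 6 livers, each of the 6 lower genes followed the mean of the other 8 members in centred log2 CPM, with Pearson's r from 0.921 for Fdft1 to 0.992 for Cyp51. For Tm7sf2, Hsd17b7 and Ebp the same r was -0.13, 0.08 and -0.15. With each group centred on its own mean, r was 0.98 for Sqle and Cyp51, 0.92 for Nsdhl, 0.89 for Lss, 0.88 for Dhcr7 and 0.76 for Fdft1, against 0.53 for Hsd17b7, 0.21 for Tm7sf2 and 0.01 for Ebp. The points share their libraries, so these values are a description.

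Of the other 12444 tested genes, the one whose pattern over the 6 livers was nearest to the mean of the 9 was Sc4mol, the sterol 4-alpha-methyl oxidase that works together with Nsdhl and Hsd17b7, with r = 0.998. A630076J17Rik, a transcript at 0.109 to 2.07 CPM, followed with r = 0.996. Next were Insig1, the endoplasmic reticulum protein that holds SREBP back when sterols are high, at r = 0.994, Rnase4, a secreted ribonuclease, and Cxcl11, a chemokine, at r = 0.991. The median r over the 12444 genes was -0.01, and 0.442% of them had r above 0.95. The likeness is one of shape, not size, since Cxcl11 had a log2 fold change of -0.15 only.

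The 5 other tested enzymes of the sterol ring and side chain all had a fitted log2 fold change below 0, with a median of -0.36. Of these, 0 of 5 were called by edgeR's quasi-likelihood test, against 0.972% of all tested genes. At an unadjusted p under 0.05, 3 of 5 were lower, against 6.67% of all. DESeq2 called 2 of 5 lower, against 1.73% of all, and edgeR's likelihood ratio test 1, against 1.81%. Sc4mol was at 481, 585 and 579 CPM in FXR-WT livers and 209, 205 and 416 CPM in Y67F-FXR livers, with a log2 fold change of -0.99 (edgeR adjusted p = 0.165). Without the third Y67F-FXR liver, in which it was highest of its group, Sc4mol was called lower, at -1.40 log2 (adjusted p = 0.0446). Sc5d, the sterol C5-desaturase, was at 323, 376 and 456 CPM and at 256, 172 and 282 CPM, with a log2 fold change of -0.70 (adjusted p = 0.190, and 0.342 without the third Y67F-FXR liver). Both genes were lower in all Y67F-FXR livers than in all FXR-WT livers.

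Upstream, in the mevalonate pathway, 7 of 8 tested genes were lower at an unadjusted p under 0.05, against 6.67% of all tested genes. None was higher, against 6.75% of all, and the median log2 fold change was -1.03. The quasi-likelihood test of edgeR called 1 of 8 lower, against 0.426% of all. The third Y67F-FXR liver was again nearest to the controls, with a mean level of the list of 0.02 log2 against -0.66 and -0.73 in the other two. Hmgcs1, HMG-CoA synthase, is listed at 0 reads in all 6 libraries, and the annotation places it at more than 1 position on an unplaced segment.

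Among 14 tested genes of SREBP processing, sterol sensing and uptake, edgeR's quasi-likelihood test called 1 higher and 0 lower. It called 0.546% of all tested genes higher and 0.426% lower. The fitted difference was below 0 in 8 of 14, against 48% of all, and the median log2 fold change was -0.03. At an unadjusted p under 0.05, 2 were lower and 3 higher, against 6.67% and 6.75% of all. DESeq2 called 2 lower and 1 higher, against 1.73% of all in each direction. The gene called higher by edgeR's quasi-likelihood test was Insig2, a relative of Insig1. It was at 61.5, 65.0 and 67.2 CPM in FXR-WT livers and 134, 135 and 106 CPM in Y67F-FXR livers. For Insig2 the log2 fold change was 0.95 (SE 0.134, edgeR adjusted p = 0.0244), and it lost the call when any 1 liver was left out (adjusted p from 0.0537 to 0.105). Insig1 was at 171, 205 and 200.3 CPM and at 92.2, 73.9 and 139 CPM, with a log2 fold change of -0.92 (adjusted p = 0.124). Without the third Y67F-FXR liver it was -1.20 (adjusted p = 0.0798). Srebf2, which encodes SREBP-2, was at 53.5, 59.8 and 56.3 CPM and at 44.5, 42.0 and 58.2 CPM, with overlapping groups and a log2 fold change of -0.23 (adjusted p = 0.596). The transcript levels say nothing of how much SREBP-2 was cleaved.

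**Figure D4:**
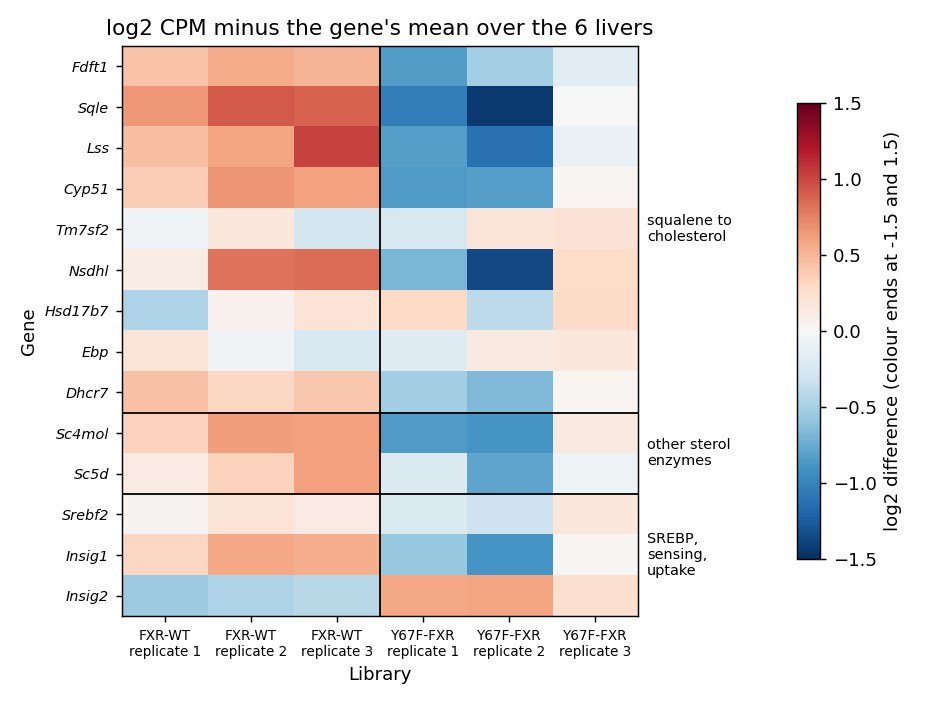
Log2 CPM of the 9 squalene to cholesterol enzymes and of Sc4mol, Sc5d, Srebf2, Insig1 and Insig2, centred on each gene's mean over the 6 livers, with a column per liver (red above the mean, blue below it). Fdft1, Sqle, Lss, Cyp51, Nsdhl, Dhcr7, Sc4mol, Sc5d, Srebf2 and Insig1 are above their mean in the FXR-WT livers and below it in the first and second Y67F-FXR livers, Insig2 is the reverse, and Tm7sf2, Hsd17b7 and Ebp show no such split.

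Nr1h4, the gene for FXR, was at 186 ± 30.2 CPM in FXR-WT and 175 ± 9.84 CPM in Y67F-FXR livers (SD, n = 3 each), with a log2 fold change of -0.09 (edgeR adjusted p = 0.861). Reads of the FXR transgene that align to this gene are counted with those of the mouse's own transcript, so this level does not check the deletion. Of 29 tested markers of liver cells other than hepatocytes, 0 were called by edgeR's quasi-likelihood test, against 0.972% of all tested genes. At an unadjusted p under 0.05, 6 of 29 were lower and 0 higher, against 6.67% and 6.75% of all. DESeq2 called 2 of 29 lower, against 1.73% of all, and edgeR's likelihood ratio test 3, against 1.81%. The summed stellate cell markers were at 69.2 to 95.8 CPM in FXR-WT livers and at 53.4 to 66.7 CPM in Y67F-FXR livers, without overlap in the sum. Singly, 0 of 7 stellate cell markers were called by the quasi-likelihood test. In 3 of 7 all Y67F-FXR livers were below all FXR-WT livers, against 10.5% of all tested genes, and the other 4 overlapped between groups. Lrat, the retinol-esterifying enzyme of stellate cells, was at 18.7, 13.1 and 17.9 CPM in FXR-WT livers and 8.51, 5.78 and 8.11 CPM in Y67F-FXR livers. The quasi-likelihood test gave Lrat -1.15 log2 (adjusted p = 0.054), and it was the 1 of 7 that DESeq2 and the likelihood ratio test called lower. S100a8, a neutrophil marker, had the lowest fitted value of the 29 markers, at 1.27, 0.970 and 0.864 CPM in FXR-WT livers and 0.243, 0.164 and 0.0477 CPM in Y67F-FXR livers (log2 fold change -2.73, edgeR adjusted p = 0.0529). The summed Kupffer cell, other leukocyte, endothelial and cholangiocyte markers overlapped between groups. The part of these markers in the lower enzyme levels was not tested.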

How the data were processed

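Liver RNA of 6 mice was sequenced as paired reads on a HiSeq2000. Per the labels and the file headers, the authors trimmed reads with Trimmomatic 0.36, aligned them to mm9 with STAR and counted them per gene with featureCounts 1.4.6-p4 without regard to strand, leaving out reads that touch several genes or map to several places. The deposited counts are whole reads per gene, not normalized, and 19551113 to 22053320 per library, which limits precision for genes at low counts. A further deposited table holds the authors' own comparison (fold changes and p-values) and was not used.

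Counts were filtered with filterByExpr, scaled by TMM and fitted by group alone in edgeR 4.0.16 (R 4.3.3), with the quasi-likelihood test, Benjamini-Hochberg adjustment over all 12453 tested genes, with calls as defined above. SE is the log2 fold change divided by the root of F. Log2 CPM used a prior count of 2. The method was tested on simulated counts. Alternatives were library totals, DESeq2 1.42.0, the likelihood ratio test, no filter, a minimum CPM of 1, a length offset, a replicate block and leaving out each liver. Pairs of livers of a group differed by more than sampling noise (median chi-square per gene from 2.21 to 7.84 on 1 degree of freedom), so each counts as 1 sample.

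The members and gene lists were chosen with earlier results of these data known. Text names all members, every called gene of the other lists or up to 3 with the smallest p, the genes Srebf2, Insig1, Cyp7a1 and Nr1h4, genes that share exon bases with a member, and the 5 nearest patterns. Hmgcs1, Lbr, Lrat and S100a8 were named outside this rule after their values were seen. Some genes that the rule names are not reported here. Gene coordinates are mm9 as in the files, and promoter windows are RefSeq GRCm38.p6. The scale per unshared exon base was added after the data were seen.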

Additional observations from a re-analysis of the deposited data

How the results depend on the processing

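The 9 enzymes kept the direction of their fitted difference under every alternative, except Hsd17b7 (-0.044 log2 without FXR-WT replicate 1) and Ebp (-0.011 with library totals in place of TMM and -0.031 without FXR-WT replicate 3). Leaving out 1 liver moved Hsd17b7 over -0.04 to 0.32 and Ebp over -0.03 to 0.17. The median log2 fold change of the 9 ran from -1.16 to -0.76 when 1 liver was left out. The number called did depend on the test, from 0 of 9 in the quasi-likelihood fit to 5 with DESeq2, 5 with the likelihood ratio test, 2 with no filter, 2 with a length offset, 1 with library totals and 6 with unadjusted p-values. Leaving out 1 liver gave 0 to 2, with 2 only without Y67F-FXR replicate 3. Over all genes, 53 were lower and 68 higher. The counts were 216 lower and 215 higher with DESeq2, 226 and 221 with the likelihood ratio test, 124 and 123 with the length offset, and 401 and 382 unadjusted. With no filter 81 were lower. Library totals gave 68 lower and 52 higher, a share higher of 43.3% against 56.2%. Leaving out 1 liver gave 7 to 33 lower and 2 to 35 higher. Replicate numbers did not pair the livers (r of same-numbered deviations -0.52, -0.08 and 0.12). Between livers of different numbers, r ran from -0.59 (FXR-WT replicate 3 with Y67F-FXR replicate 2) to 0.58 (FXR-WT replicate 3 with Y67F-FXR replicate 1). With the replicate block, 6 genes were lower, 2 higher and 0 members called, and with the block and the length offset 1 member was called. With 3 livers per group, the 95% intervals of Tm7sf2, Hsd17b7 and Ebp reach 0.51, 0.68 and 0.42 log2 at their upper ends.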

Other observations

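Cholesterol also leaves the hepatocyte by secretion into bile and by conversion to bile acids, and of 13 tested genes of efflux, esterification and conversion, 3 fell and 2 rose in edgeR's quasi-likelihood test, which called 0.426% of all tested genes lower and 0.546% higher. DESeq2 and the likelihood ratio test of edgeR each called 4 of the 13 lower and 3 higher, against 1.73% lower and 1.73% higher, and 1.81% lower and 1.77% higher, of all genes. The genes that fell were Abcg5 and Abcg8, whose products pump sterols into bile, and Scarb1, the receptor for high-density lipoprotein. Abcg5 was at 235, 178 and 177 CPM in FXR-WT livers and at 89.1, 82.0 and 81.2 CPM in Y67F-FXR livers, a log2 fold change of -1.22 (edgeR adjusted p = 0.0175). Abcg8 was at 247, 189 and 194 CPM and at 98.0, 78.8 and 94.0 CPM, a log2 fold change of -1.22 (adjusted p = 0.0176). In both genes the first Y67F-FXR liver, not the third, was nearest to the controls. Both lost the call without FXR-WT replicate 3 (adjusted p = 0.0614 for Abcg5 and 0.0716 for Abcg8) and without Y67F-FXR replicate 3 (0.0817 for each). Scarb1, with a log2 fold change of -0.66 and an adjusted p of 0.0429, lost the call when any 1 liver was left out (adjusted p from 0.0755 to 0.221).

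The genes that rose were Cyp7a1, the rate-limiting enzyme of bile acid synthesis, and Cyp8b1, the 12-alpha-hydroxylase that leads to cholic acid. Cyp7a1 was at 94.8, 119 and 99.1 CPM in FXR-WT livers and at 353, 232 and 249 CPM in Y67F-FXR livers, a log2 fold change of 1.41 (edgeR adjusted p = 0.0210). Cyp8b1 was at 452, 810.4 and 619.9 CPM and at 1545, 1827 and 1576 CPM, a log2 fold change of 1.39 (adjusted p = 0.0333). Cyp7a1 lost the call without any 1 of the FXR-WT livers or the third Y67F-FXR liver (adjusted p up to 0.102). Cyp8b1 lost it without FXR-WT replicate 3 or any 1 of the Y67F-FXR livers (up to 0.127).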
